A study of Mus musculus with 38 samples.

Results

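The ErbB family comprises the epidermal growth factor receptor gene Egfr, its relatives Erbb2, Erbb3 and Erbb4, and the EGF-like ligand genes Areg, Ereg, Hbegf, Tgfa, Btc and Egf. These 10 genes were chosen by their names in the scanner files, out of 27962 gene names on the array, and are represented by 25 probes on 70 spots. For 18 of the 25 probes the accession on the array belonged to the same gene in the RefSeq table, and no probe with an accession of a family member carried another name.

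Cells of the MMTV-PyMT mouse breast cancer model were profiled, in which the mouse mammary tumor virus promoter drives the polyoma middle T oncogene in mammary epithelium. Every sample was of the FVB/n background and consisted of sorted GFP-positive cells. Hyperplasias of MMTV-PyMT;actin-GFP mice had been grafted into mammary fat pads of FVB/n hosts, cleared of epithelium. Disseminated cells and metastases were sorted from digested lungs of such hosts, and the other samples from the tumor outgrowths. GFP is driven by an actin promoter, so that it marks transplanted cells of any type and not the tumor epithelium alone. The progression experiment held 5 adenomas, 6 carcinomas, 6 samples of disseminated cells from lungs and 5 samples of lung metastases, and the lungs of several mice were pooled for each sample of disseminated cells. The mice that yielded metastases had had their primary tumors removed by surgery, and those that yielded disseminated cells carried late carcinomas. The chemotherapy experiment held 6 untreated tumors (labelled Control), 6 residual tumors (labelled Regressed tumor) taken after the first dose of docetaxel, doxorubicin and cyclophosphamide, and 4 relapsed tumors (labelled Resistant tumor) taken after the fourth dose. Treatment began at 2 months after transplantation, at the early carcinoma stage. RNA of the progression samples went through 2 rounds of amplification before labelling, so the experiments were analysed apart. All 38 samples were labelled with Cy5 and hybridized against the same Cy3-labelled Universal mouse reference, with no dye swap. Each value below is therefore a log2 ratio of sample to reference for 1 probe, and levels are compared between samples and never between genes. The labels number the replicates and say no more about their origin, so p-values measure the spread between these samples.

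ErbB receptors are tyrosine kinases of the cell surface that pair with one another when a ligand binds. Erbb2 has no known ligand of its own and acts as a partner, while Erbb3 has little kinase activity and couples its partners to phosphatidylinositol 3-kinase. The ligands are made as membrane precursors and shed by metalloproteases. Areg is the ligand through which estrogen drives elongation of the mammary ducts, and the middle T antigen feeds into the same kinases downstream of the receptors.

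The proximal promoters of Areg, which was called higher in metastases than in adenomas, and of Egfr and Erbb2, which were called lower there, are shown for reference. Erbb3 and Ereg had no entry in the promoter table. They are the 250 bases upstream of the annotated start in RefSeq on GRCm38.p6, 5′ to 3′ on the plus strand, and capitals mark matches, on either strand, to a cAMP response element (TGACGTCA), a TATA box (TATAAA), a GC box (GGGCGG) or an AP-1 site (TGANTCA).
Areg, chr5:91139349-91139598: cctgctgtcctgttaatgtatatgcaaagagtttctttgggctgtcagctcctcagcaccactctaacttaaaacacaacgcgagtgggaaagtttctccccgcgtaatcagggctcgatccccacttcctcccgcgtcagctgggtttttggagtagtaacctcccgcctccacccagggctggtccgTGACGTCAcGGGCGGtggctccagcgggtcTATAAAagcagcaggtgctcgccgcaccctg
Egfr, chr11:16751953-16752202: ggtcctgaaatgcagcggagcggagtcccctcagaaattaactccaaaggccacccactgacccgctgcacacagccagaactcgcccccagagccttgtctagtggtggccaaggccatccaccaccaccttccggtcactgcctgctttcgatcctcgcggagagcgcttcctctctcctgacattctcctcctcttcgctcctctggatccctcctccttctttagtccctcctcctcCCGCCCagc
Erbb2, chr11:98412234-98412483: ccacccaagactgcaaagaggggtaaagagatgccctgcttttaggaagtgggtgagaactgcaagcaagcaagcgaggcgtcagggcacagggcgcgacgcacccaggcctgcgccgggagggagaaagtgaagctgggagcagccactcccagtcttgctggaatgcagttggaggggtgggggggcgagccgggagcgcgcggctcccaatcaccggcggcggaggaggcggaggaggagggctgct
The Areg promoter held 1 cAMP response element, 1 GC box and 1 TATA box within this window. The Egfr promoter held 1 GC box, read from the opposite strand, and the Erbb2 promoter held none of the 4 motifs. Of 32851 promoters of the same length, 1.55% held the cAMP response element, 12.4% the TATA box, 32.7% the GC box and 6.75% the AP-1 site. A match is a description of these letters and not of binding.

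Between 48.4% and 78.9% of the spots of an array were well above background in the progression experiment, and between 50.5% and 64.3% in the chemotherapy experiment. A few samples stood apart from their group. In carcinoma replicate 6 the mean log2 ratio of 10 macrophage markers was 5.18, against a median of 0.15 over the carcinomas, and the mean of 10 luminal mammary markers was 2.10, the lowest of its group. In metastases replicate 4 the luminal mean was 0.06, while the other metastases lay between 2.96 and 4.26. The slides 2, 3 and 6 of the progression experiment held carcinomas and metastases, and the slides 1, 4 and 5, scanned on another day, held adenomas and disseminated cells. Therefore slide, scan day and stage cannot be told apart for carcinoma or metastases against adenoma, or for disseminated cells against carcinoma or metastases.

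A call required an adjusted p below 0.05 (limma, Benjamini-Hochberg over all gene names) together with at least a 2-fold difference. Against adenoma, 1 of the 10 family members was called in carcinomas, 3 in disseminated cells and 3 in metastases. Of all gene names, 3.38%, 10.7% and 14.8% were called there. Areg was called higher in carcinomas and metastases. The receptors Egfr and Erbb2 were called lower in disseminated cells and metastases, and Erbb3 in disseminated cells alone. The median log2 change of the 10 members was 0.06 in carcinoma against 0.07 over all genes, -0.57 in disseminated cells against -0.01, and -0.27 in metastases against 0.01. The 3 comparisons share the same adenomas.

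**Figure D1:**
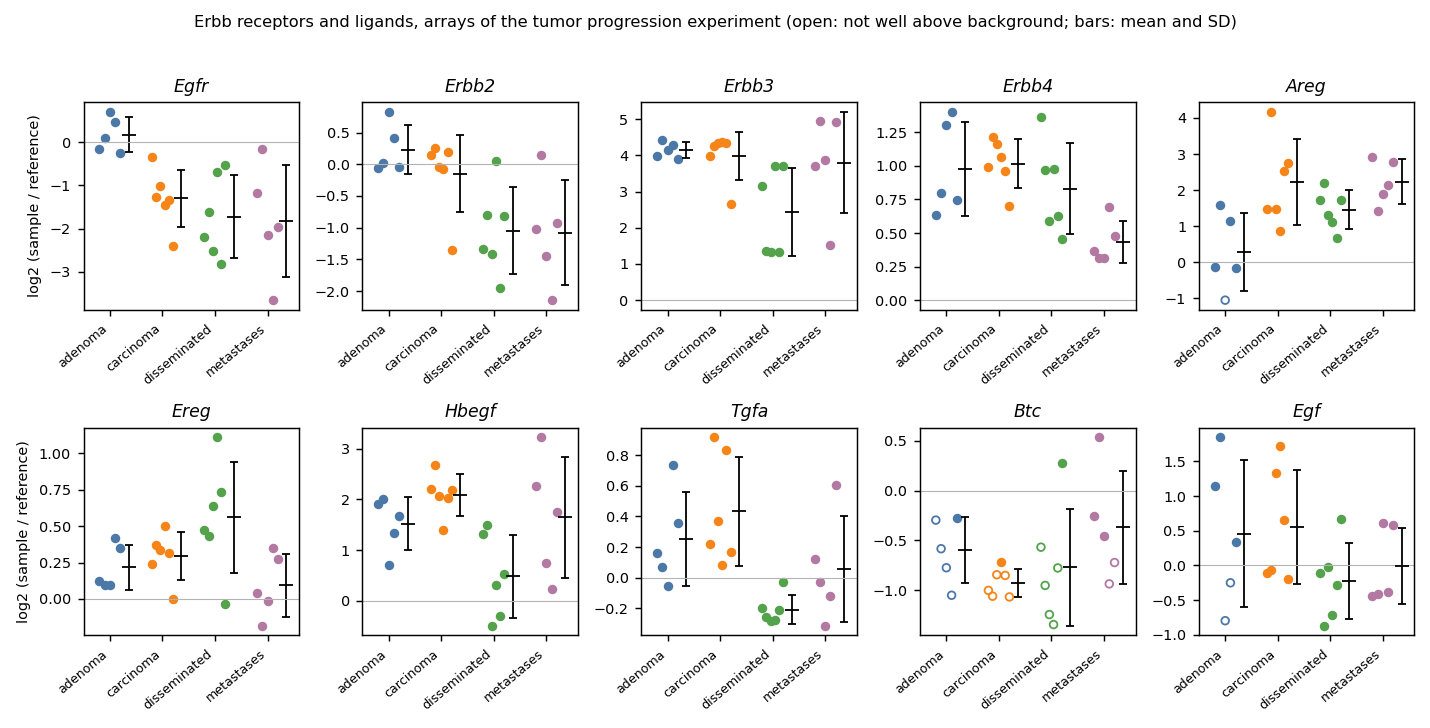
Log2 ratio of sample to reference of each family member on every array of the progression experiment, by stage. Filled points are well above background and open points are not, and bars give the mean and SD. Every Egfr value of the carcinomas and disseminated cells lay below every adenoma, and Areg lay highest in carcinomas and metastases.

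Egfr, the receptor for Egf, Areg and Tgfa, was lower in lung-derived cells than in adenomas. With the probe of highest signal, the 5 adenomas gave log2 ratios of -0.16, 0.10, 0.71, 0.47 and -0.24. The 6 carcinomas ranged from -2.40 through a median of -1.31 to -0.34, and the 6 samples of disseminated cells from -2.83 through -1.90 to -0.51. The 5 metastases gave -1.17, -0.16, -2.15, -3.66 and -1.96. All carcinomas and all disseminated cells lay below the lowest adenoma, and 1 metastasis sample lay inside the adenoma range. Egfr fell by 1.90 on the log2 scale in disseminated cells (SE 0.51, 95% interval -2.98 to -0.83, adjusted p = 0.0136 by limma), which is a 3.74-fold decrease. In metastases it fell by 2.00 (SE 0.54, 95% interval -3.12 to -0.87, limma adjusted p = 0.00879). The carcinomas were lower by a log2 change of -1.48 (SE 0.51, limma adjusted p = 0.0666), which did not pass the test. No overlap between groups was seen for 10.6% of all gene names in carcinoma against adenoma and 9.49% in disseminated cells against adenoma. On the slides shared with adenomas, the difference of disseminated cells from adenoma in Egfr was -1.51, -1.86 and -2.61, so it had the same sign on each slide. Without metastases replicate 4 the decrease in metastases was -1.54 (limma adjusted p = 0.0285).

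Several Egfr probes were on the array, and they did not move alike. The probe used above lies at chr11:16865821-16865880 (mm7, the build of the array annotation) and is assigned to transcript variant 1, which encodes the full receptor. A probe at chr11:16839391-16839450, also with 10 spots, is assigned to variant 2, a shorter transcript that encodes a truncated receptor without the kinase domain. Single-spot probes of variant 1 and variant 2 lie at 16864187 and 16835551, respectively. The positions of these probes relative to exons were not analysed here, so a probe stands for its position and not for an isoform.

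In disseminated cells against adenoma all 4 Egfr probes were lower, and 3 of them passed the test. The log2 changes were -1.90 and -1.25 for the variant 1 probes and -1.28 and -1.45 for the variant 2 probes, with limma adjusted p of 0.0686 for the single-spot variant 1 probe. In metastases against adenoma the probes diverged: -2.00 for the probe of highest signal, but -0.68, -0.66 and -0.63 for the others, none of which passed the test (limma adjusted p = 0.322, 0.244 and 0.21). In carcinoma the variant 2 probes gave -0.06 and -0.11 beside -1.48 and -0.71 for those of variant 1. The call of Egfr in metastases thus rested on 1 of these 4 probes. Of the remaining 2 probes, which come from cDNA clones, 1 was not above background on nearly all arrays, and the other gave -1.29 for carcinoma, -0.76 for disseminated cells and -0.05 for metastases, each against adenoma (limma adjusted p = 0.0632, 0.246 and 0.951).

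The divergence of the 10-spot probes was tested by itself, a test chosen after the values were seen. The difference of the variant 1 probe from the variant 2 probe on the same array was -1.38 ± 0.16 (SD, n = 5) in adenomas and -2.79 ± 0.34 (SD, n = 6) in carcinomas, with no overlap (exact permutation test, two-sided, p = 0.00433, the smallest that 462 arrangements allow; 0.0357 adjusted over 9 comparisons). In metastases it was -2.71 ± 0.69 (SD, n = 5), again below every adenoma (exact permutation test, p = 0.00794, the smallest that 252 arrangements allow, adjusted p = 0.0357). In disseminated cells it was -2.00 ± 0.63 (SD, n = 6), which overlapped with adenoma (exact permutation test, p = 0.0866, adjusted p = 0.195). Carcinoma replicate 6, at -2.34, lay below all adenomas as well. Both stages that differed from adenoma lie on other slides than adenoma. Probe pairs of other genes were not compared, so how common such a divergence is on these arrays was not tested. Of single gene names, 10.6% did not overlap in carcinoma against adenoma and 21.7% in metastases against adenoma. Between spots of 1 probe on 1 array the SD had a median of 0.04 for the variant 1 probe and 0.03 for the variant 2 probe. In the chemotherapy experiment the probes kept step, with differences of -0.83, -0.70 and -0.76 in untreated, residual and relapsed tumors.

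**Figure D2:**
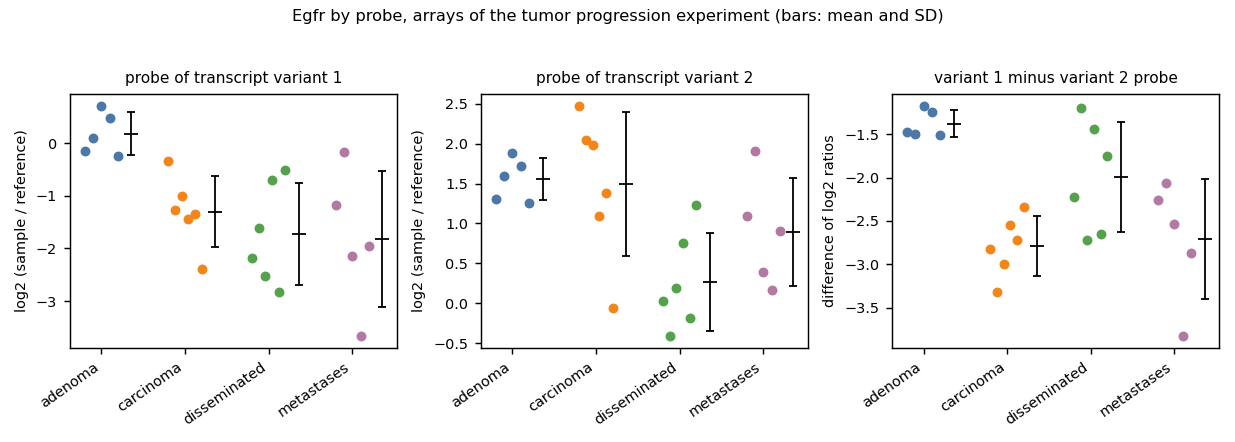
Log2 ratio of the 10-spot Egfr probes assigned to transcript variant 1 (left) and variant 2 (middle) and their difference (right) on each array, by stage, with mean and SD. The difference was about -1.38 in adenomas and below -2 in every carcinoma and metastasis sample.

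Erbb2, the receptor without a ligand of its own, was also lower in lung-derived cells than in adenomas. Against carcinoma it was not called, at -0.90 in disseminated cells and -0.93 in metastases (limma adjusted p = 0.0704 and 0.0844). Adenomas gave -0.06, 0.02, 0.83, 0.41 and -0.04, and metastases -1.02, 0.15, -1.44, -2.14 and -0.92. Carcinomas ranged from -1.36 through 0.05 to 0.26 and disseminated cells from -1.96 through -1.08 to 0.06. In each lung group 1 sample lay within the adenoma range and all others lay below it. Erbb2 fell by 1.28 in disseminated cells (SE 0.38, 95% interval -2.07 to -0.49, limma adjusted p = 0.0213) and by 1.31 in metastases (SE 0.39, 95% interval -2.13 to -0.49, limma adjusted p = 0.0174), each compared with adenoma. On the 3 shared slides the decrease in disseminated cells was -1.25, -1.20 and -1.68. Both calls were lost without adenoma replicate 3, at -1.13 (adjusted p = 0.0625) and -1.16 (adjusted p = 0.0502). The call in metastases was also lost without replicate 4, at -1.04 (adjusted p = 0.0576), and that in disseminated cells without replicate 5, at -1.10 (adjusted p = 0.058). The second Erbb2 probe was well above background in 2 of 5 adenomas, 6 of 6 carcinomas, 5 of 6 disseminated samples and 5 of 5 metastases, and its means lay between -0.36 and -0.09 in the 4 stages. Its log2 changes against adenoma were -0.27 in disseminated cells and -0.06 in metastases (limma adjusted p = 0.187 and 0.813 over all probes), so the Erbb2 calls rested on 1 of 2 probes.

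Erbb3, the receptor that signals to phosphatidylinositol 3-kinase, divided the disseminated samples. It was high in adenomas, at 3.97, 4.43, 4.16, 4.29 and 3.89, and in 5 of 6 carcinomas, which ranged from 2.67 through 4.29 to 4.36. Disseminated cells gave 3.15, 1.35, 1.33, 3.72, 1.34 and 3.72, that is 3 samples close to 1.3 and 3 above 3. Metastases gave 3.72, 4.96, 3.88, 1.52 and 4.93, so that only replicate 4 was low. Erbb3 fell by 1.71 in disseminated cells against adenoma (SE 0.57, 95% interval -2.91 to -0.52, limma adjusted p = 0.0392), with no overlap, and by 1.56 against carcinoma (SE 0.55, 95% interval -2.70 to -0.42, limma adjusted p = 0.0402). On the shared slides the difference of disseminated cells from adenoma was -0.69, -1.62 and -2.83. Both calls lay near the threshold and were lost when any of several single samples was left out, with adjusted p up to 0.0964 against adenoma and 0.0961 against carcinoma. The other 4 Erbb3 probes were all lower in disseminated cells than in carcinoma, by log2 changes of -1.38, -0.58, -1.02 and -0.48 (limma adjusted p from 0.0056 to 0.018). They were well above background in 4, 3, 5 and 2 of the 6 disseminated samples, respectively. With the mean of the Erbb3 probes, the call against carcinoma held and that against adenoma was lost. Without metastases replicate 4, Erbb3 was higher in metastases than in disseminated cells by 1.94 (adjusted p = 0.0143), while with it the difference was 1.37 (adjusted p = 0.126).

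Erbb4, the receptor for heregulins and Hbegf, was lowest in metastases. Means were 0.98 ± 0.35 (SD, n = 5) in adenomas, 1.02 ± 0.18 (SD, n = 6) in carcinomas, 0.83 ± 0.34 (SD, n = 6) in disseminated cells and 0.43 ± 0.16 (SD, n = 5) in metastases. Each metastasis sample, from 0.31 to 0.69, lay below each carcinoma, from 0.70 to 1.22, where 13.6% of all gene names did not overlap. The log2 change of -0.58 (SE 0.16, 95% interval -0.92 to -0.25, limma adjusted p = 0.0142) was under 2-fold, as was that against adenoma, -0.54 (limma adjusted p = 0.0206). On the 3 shared slides metastases differed from carcinoma by -0.54, -0.75 and -0.52. The other Erbb4 probes were not above background on almost any array.

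**Figure D3:**
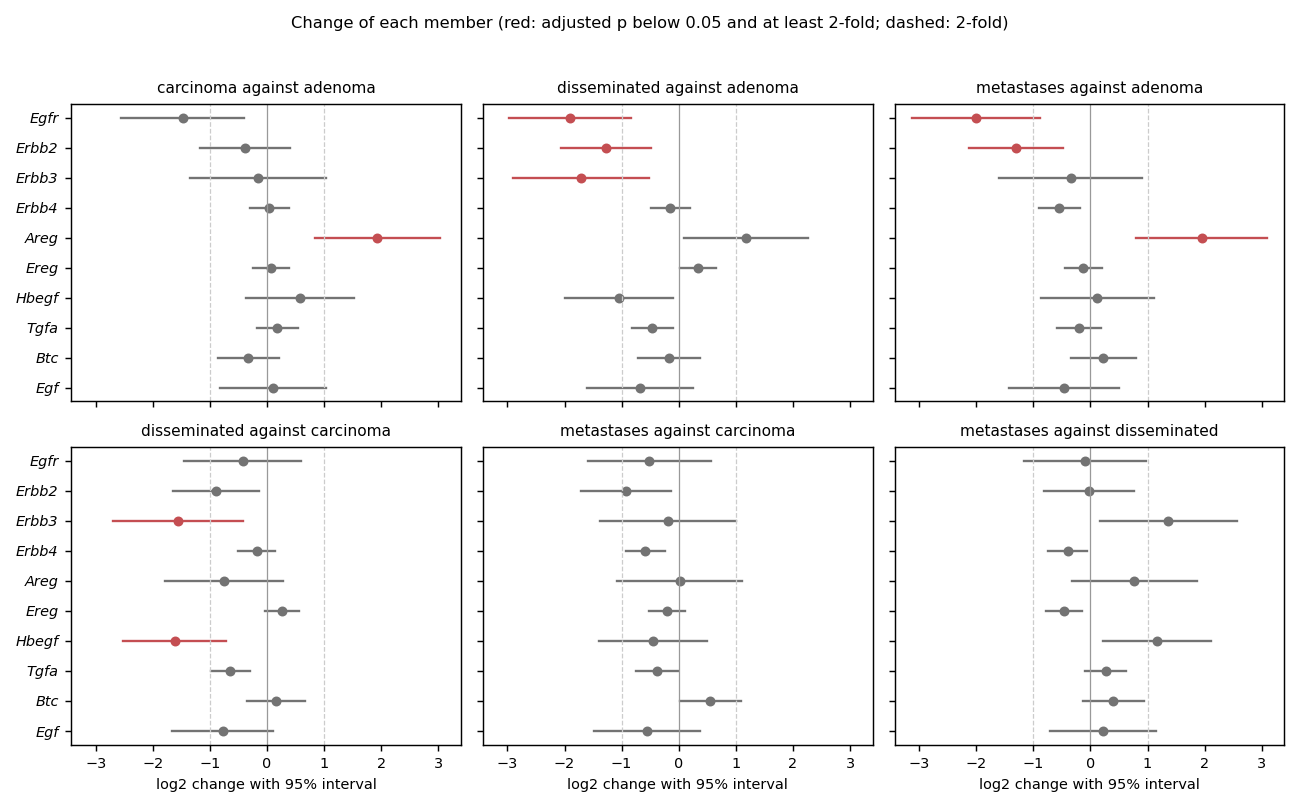
Log2 change of each family member with its 95% interval in the 6 comparisons of the progression experiment. Red marks an adjusted p below 0.05 with at least 2-fold change, and dashed lines mark 2-fold. Receptors lie to the left of 0 in disseminated cells against adenoma, and Areg to the right in all 3 comparisons with adenoma.

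Among the ligands, Areg was the single one called higher during progression. Adenomas gave -0.13, 1.59, -1.05, 1.15 and -0.16, of which the third was not well above background. Carcinomas ranged from 0.87 through 2.01 to 4.17, disseminated cells from 0.66 through 1.52 to 2.19, and metastases gave 2.90, 1.41, 1.90, 2.14 and 2.78. The adenomas overlapped with each later stage through replicate 2, and with carcinomas and disseminated cells also through replicate 4. Areg rose by 1.93 in carcinoma (SE 0.52, 95% interval 0.84 to 3.03, limma adjusted p = 0.022), a 3.82-fold increase, and by 1.95 in metastases (SE 0.55, 95% interval 0.81 to 3.09, limma adjusted p = 0.0114). In disseminated cells the change was 1.18 (95% interval 0.09 to 2.27, limma adjusted p = 0.116). Areg in metastases differed from carcinoma by 0.01 (95% interval -1.08 to 1.10). Without adenoma replicate 3, in which Areg was not well above background, the change in carcinoma was 1.60 (limma adjusted p = 0.0737). Without carcinoma replicate 6 it was 1.83 (limma adjusted p = 0.0377). The call in carcinoma was also lost when adenomas and carcinomas alone were fitted (limma adjusted p = 0.0589) and in a test without moderated variances (adjusted p = 0.0959). In these settings Egfr, at -1.48 in carcinoma against adenoma, was called instead (adjusted p = 0.0116 by limma and 0.0258 without moderation).

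Hbegf, a ligand of Egfr and Erbb4, was lower in disseminated cells than in carcinomas. In this comparison 2 of 10 family members were called, Erbb3 and Hbegf, where 11.8% of all gene names were called. Carcinomas ranged from 1.40 through 2.13 to 2.69 and disseminated cells from -0.49 through 0.41 to 1.50, with an overlap of a single carcinoma. Hbegf fell by 1.62 (SE 0.43, 95% interval -2.52 to -0.71, limma adjusted p = 0.00934). Adenomas gave 1.90, 2.00, 0.70, 1.34 and 1.67, and metastases 2.27, 3.23, 0.74, 0.23 and 1.76. The metastases spread over the widest range of the 4 stages, and no other Hbegf comparison passed the test.

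Tgfa, an Egfr ligand, was lower in disseminated cells, from -0.28 to -0.03, than in every carcinoma, from 0.08 to 0.92. The log2 change of -0.64 (SE 0.17, 95% interval -0.99 to -0.30, limma adjusted p = 0.00736) was under 2-fold, and 7.25% of all gene names did not overlap between these groups. The second Tgfa probe did not move this way, with means of 0.19 in carcinomas and 0.43 in disseminated cells. Ereg was lower in metastases than in disseminated cells by a log2 change of -0.47 (limma adjusted p = 0.0455), also under 2-fold. Its probe comes from a cDNA clone on the opposite strand to the probe of the Ereg messenger RNA, which was not above background except in 2 metastases. Btc was above background on 6 of 22 arrays of the progression experiment. Egf ranged from -0.87 to 1.85 over the 22 arrays and was called in no comparison.

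None of the family members was called in metastases against carcinoma or against disseminated cells, where 10.2% and 7.18% of all gene names were called. At an unadjusted p below 0.05 (limma) there were 4 members in each, where 34.1% and 27% of all gene names lay below it, and a test without moderated variances had 2 in each. On the slides shared by carcinomas and metastases the differences in Egfr were -1.74, -0.69 and 1.71, in Erbb2 -1.63, -1.27 and 0.73, and in Erbb3 -1.55, 0.10 and 1.46. The last of these slides held 1 metastasis and 2 carcinomas, of which replicate 6 was one. Without that sample Erbb2 was lower in metastases by -1.17 (limma adjusted p = 0.0191), and with it by -0.93 (limma adjusted p = 0.0844).

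Markers of other cell types moved with the same comparisons. In disseminated cells against adenoma, 10.7% of all gene names were called. There 10 of 10 macrophage, 7 of 7 alveolar macrophage, 7 of 9 neutrophil and 7 of 9 endothelial markers were called higher. Of 9 lung epithelial markers, 6 were called higher and 1 lower. For the 10 luminal markers, 1 was called lower, but the median log2 change was -1.54 and only 1 changed upward. The mean log2 ratio of the macrophage markers was -0.45 to 0.16 in adenomas, -0.61 to 5.18 in carcinomas, 3.32 to 5.38 in disseminated cells and 1.10 to 5.64 in metastases. For alveolar macrophage markers the ranges were -0.09 to 0.37, 0.17 to 1.38, 4.22 to 5.60 and 1.87 to 4.14. The alveolar macrophage genes Ear10, Fabp1 and Siglecf were not well above background on any adenoma array. The luminal mean was 2.57 to 3.29 in adenomas, 2.10 to 3.63 in carcinomas, -0.04 to 3.10 in disseminated cells and 0.06 to 4.26 in metastases.

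Erbb3 was lowest in the disseminated cells and metastases in which luminal markers were low. The disseminated samples with Erbb3 near 1.3 had luminal means of 0.98, -0.04 and 0.27, and those with Erbb3 above 3 had means of 1.74, 2.43 and 3.10. Metastases replicate 4, with the lowest Egfr, Erbb2 and Erbb3 of its group, had a luminal mean of 0.06 and the highest macrophage mean, 5.64. Disseminated replicates 4 and 6, with the highest luminal means of their group, had macrophage means of 3.32 and 4.56. Their Egfr of -0.69 and -0.51 lay below the lowest adenoma. Erbb2 lay within the adenoma range in replicate 4, at 0.06, and below every adenoma in replicate 6. Metastases replicates 1, 3 and 5 had luminal means within or just above the adenoma range, at 3.36, 2.96 and 3.27. Their macrophage means were 3.87, 4.83 and 1.43. Egfr was -1.17, -2.15 and -1.96 in these samples, and Erbb2 was -1.02, -1.44 and -0.92, below every adenoma. Metastases replicate 2 had the highest luminal mean of its group, 4.26, and the lowest macrophage mean, 1.10. Its Egfr of -0.16 and Erbb2 of 0.15 lay within the adenoma ranges. Erbb4 did not follow the luminal markers, with 0.69, the highest of its group, in metastases replicate 4 and 0.46, the lowest of its group, in disseminated replicate 6. In a sorted bulk sample, fewer cells of a type and less RNA per cell cannot be told apart, and the part of these cell types in the receptor levels was not tested.

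**Figure D4:**
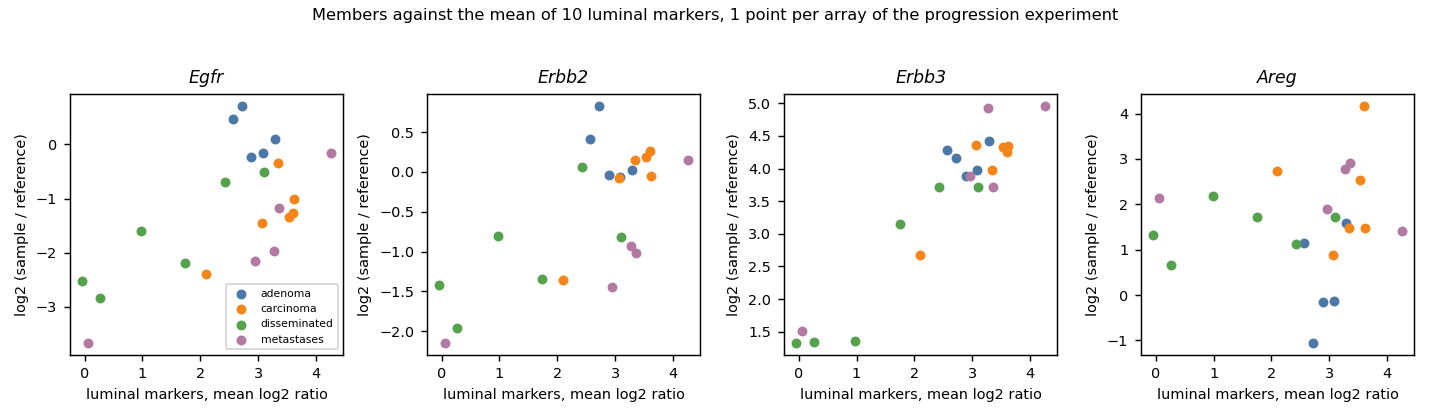
Log2 ratio of family members against the mean log2 ratio of 10 luminal mammary markers on each array of the progression experiment, coloured by stage. Disseminated samples and metastases replicate 4 with luminal means below 1 had Erbb3 below 2.

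Egfr and Erbb2 followed each other across the 22 progression arrays (Pearson r = 0.884, and 0.889 after group means were taken off). The r of Erbb2 with Erbb3 was 0.724, that of Egfr with Erbb3 0.670, and that of Egfr with Areg -0.444, or -0.09 within groups. Among 13540 gene names above background on every progression array, the patterns most like Egfr were those of Pkp2 (r = 0.951), Ptk2 (r = 0.940) and Stk39 (r = 0.933). Those most like Erbb2 were Tnks1bp1 (r = 0.971), Dus1l (r = 0.963) and Muc20 (r = 0.955). For Erbb3 they were Clmn (r = 0.966), St14 (r = 0.962) and Npal2 (r = 0.951), and for Hbegf Dusp14 (r = 0.892), Smurf1 (r = 0.852) and Itpkc (r = 0.834). For Erbb4 they were TC1530779 (r = 0.911), Olfr43 (r = 0.886) and Sprr2e (r = 0.875). In the 16 chemotherapy arrays Pkp2, a desmosome component, was again among the 3 genes most like Egfr (r = 0.890). Grb7, an adaptor gene next to Erbb2 on the chromosome, was the most like Erbb2 (r = 0.883). The gene most like Erbb4 there was Cd68, 1 of the macrophage markers (r = 0.926). The arrays of a comparison share slide and cell makeup, so these values are descriptions.

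Of 80 genes of the pathway, grouped by role, 78 were measured and 36 were called in at least 1 comparison. In carcinoma against adenoma 1 of 78 was called (1.28%, and 3.38% of all gene names), the Ras exchange factor Sos1, which fell by 1.21. In disseminated cells against adenoma 9 rose and 5 fell (17.9%, and 10.7% of all gene names). In metastases against adenoma 9 rose and 8 fell (21.8%, and 14.8% of all gene names), and in disseminated cells against carcinoma 14 rose and 3 fell (21.8%, and 11.8%). In metastases 11 rose and 6 fell against carcinoma (21.8%, and 10.2%), and 5 rose and 7 fell against disseminated cells (15.4%, and 7.18%). The median log2 change of the 78 genes lay between -0.22 and 0.06 in the 6 comparisons. Without disseminated replicate 3 or 5, the 14 calls in disseminated cells against adenoma became 9 or 8. Of the 78 calls over all comparisons, 50 held when any single sample was left out.

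Of 13 inhibitors of the receptors, 3 rose and 2 fell in disseminated cells against adenoma, where 10.7% of all gene names were called. The ubiquitin ligase gene Cblc fell by 2.20 (SE 0.49, limma adjusted p = 0.00492), while its relative Cbl rose by 1.63 (SE 0.45, limma adjusted p = 0.0152). In metastases Lrig3, of a family of transmembrane receptor inhibitors, fell by 1.61 against adenoma (SE 0.34, limma adjusted p = 0.00174) and Socs4 rose by 1.65 (SE 0.42, limma adjusted p = 0.00611). Among the other ligands, Nrg1, which binds Erbb3 and Erbb4, rose by 1.49 in disseminated cells against adenoma (SE 0.44, limma adjusted p = 0.0205), and the sheddase gene Adam17 rose by 1.32 (SE 0.34, limma adjusted p = 0.01). Adam17 was lower by 2.02 in metastases than in disseminated cells (SE 0.34, limma adjusted p = 0.00086). In that comparison 7 of 9 neutrophil and 5 of 7 alveolar macrophage markers were also called lower, where 7.18% of all gene names were called. The part of such cells in the pathway genes was not tested.

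Downstream, the adaptor gene Grb2 rose by 1.76 in disseminated cells against carcinoma (SE 0.29, limma adjusted p = 0.000305) and fell by 2.11 in metastases against disseminated cells (SE 0.30, limma adjusted p = 0.00028). Grb7, which sits beside Erbb2, fell by 2.13 in disseminated cells against carcinoma (SE 0.62, limma adjusted p = 0.015). Yes1, a Src family kinase, rose by 2.13 in metastases against carcinoma (SE 0.32, limma adjusted p = 0.000243). Pik3cd, the phosphatidylinositol 3-kinase subunit of leukocytes, rose by 2.85 in disseminated cells against adenoma (SE 0.61, limma adjusted p = 0.00395), alongside the macrophage markers above, whose part in it was not tested. Pik3cb, the widely expressed subunit, rose by 2.44 in metastases against adenoma (SE 0.43, limma adjusted p = 0.000352). Of 17 feedback targets of the Mapk cascade, which follow receptor signalling, 1 rose and 2 fell in disseminated cells against adenoma, 1 fell in metastases against adenoma and 1 fell in metastases against carcinoma, where 10.7%, 14.8% and 10.2% of all gene names were called. None was called in carcinoma against adenoma, in disseminated cells against carcinoma or in metastases against disseminated cells, where 3.38%, 11.8% and 7.18% were called. Fosl1, one of them, fell by 1.17 in disseminated cells (SE 0.33, limma adjusted p = 0.0161) and by 1.13 in metastases (SE 0.34, limma adjusted p = 0.0176), and the latter call was lost without metastases replicate 3 or adenoma replicate 2.

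The chemotherapy experiment asked which genes differ in tumors that persist or regrow under treatment. None of the 10 family members was called in residual against untreated, relapsed against untreated or relapsed against residual tumors, where 0.104%, 0.0107% and 0.218% of all gene names were called by limma. At an unadjusted p below 0.05 (limma) there were 0, 3 and 2 members, where 9.14%, 7.72% and 7.81% of all gene names lay below it, and the test without moderated variances had 1, 2 and 1.

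Areg was the member with the largest difference. Untreated tumors ranged from 1.25 through a median of 1.74 to 2.54, residual tumors from 0.88 through 1.69 to 3.05, and relapsed tumors gave 3.25, 3.48, 2.36 and 2.56. The relapsed values of 3.25 and 3.48 lay above every untreated and residual tumor. The value of 2.36 overlapped with both groups, and that of 2.56 with the residual tumors. The log2 change of relapsed against untreated tumors was 1.07 (SE 0.37, 95% interval 0.29 to 1.85, limma adjusted p = 0.435), and that against residual tumors was 1.10 (95% interval 0.32 to 1.88, limma adjusted p = 0.415). With slide as a block these became 0.25 and 1.57 (limma adjusted p = 0.997 and 0.486), and on the single slide that held both relapsed and untreated tumors the difference was 0.23. On the slide that held relapsed and residual tumors it was 1.59.

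None of the receptors passed the test. Egfr had means of 0.67 ± 0.42 (SD, n = 6), 0.99 ± 0.58 (SD, n = 6) and 0.56 ± 0.26 (SD, n = 4) in untreated, residual and relapsed tumors. Erbb2 had 0.89 ± 0.17, 1.10 ± 0.25 and 1.36 ± 0.25, with a log2 change of 0.47 in relapsed against untreated tumors (95% interval 0.18 to 0.77, limma adjusted p = 0.34). Erbb3 had 3.88 ± 0.07, 4.05 ± 0.15 and 4.13 ± 0.29, and Erbb4 0.38 ± 0.19, 0.37 ± 0.20 and 0.34 ± 0.11. For Erbb3 the 95% interval of the change was -0.04 to 0.39 in residual and 0.01 to 0.49 in relapsed tumors, which leaves out a 2-fold change in either direction. The interval also left out 2-fold for Egfr, at -0.20 to 0.84 in residual and -0.69 to 0.47 in relapsed tumors, each against untreated tumors. In relapsed against residual tumors it was -1.01 to 0.15, which includes a 2-fold decrease. Luminal marker means lay between 3.81 and 4.39 in all 3 groups. Macrophage marker means varied more, from -0.67 to 1.87 in untreated, -0.73 to 0.97 in residual and -1.01 to 0.37 in relapsed tumors. Of 10 macrophage markers, 1 changed upward in residual and 0 in relapsed against untreated tumors, and none was called. The part of these cells in the receptor values was not tested.

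None of the other ligands passed the test either. Hbegf had means of 2.07 ± 0.63, 2.52 ± 0.60 and 2.43 ± 0.83, Tgfa 0.90 ± 0.29, 0.84 ± 0.38 and 0.91 ± 0.26, and Btc 0.47 ± 0.20, 0.34 ± 0.34 and 0.68 ± 0.09. The Tgfa probe of highest signal here was the one named second in the progression experiment. The Tgfa probe used there had means of 0.28, 0.09 and 0.41 in untreated, residual and relapsed tumors. Egf varied most among untreated tumors, from -0.51 to 2.46, and its change of -0.77 in residual tumors had a 95% interval of -1.60 to 0.06 (limma adjusted p = 0.589). Ereg was near background, with means of -0.55, -0.52 and -0.49. Of the 78 pathway genes none was called in any of the 3 comparisons.

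**Figure D5:**
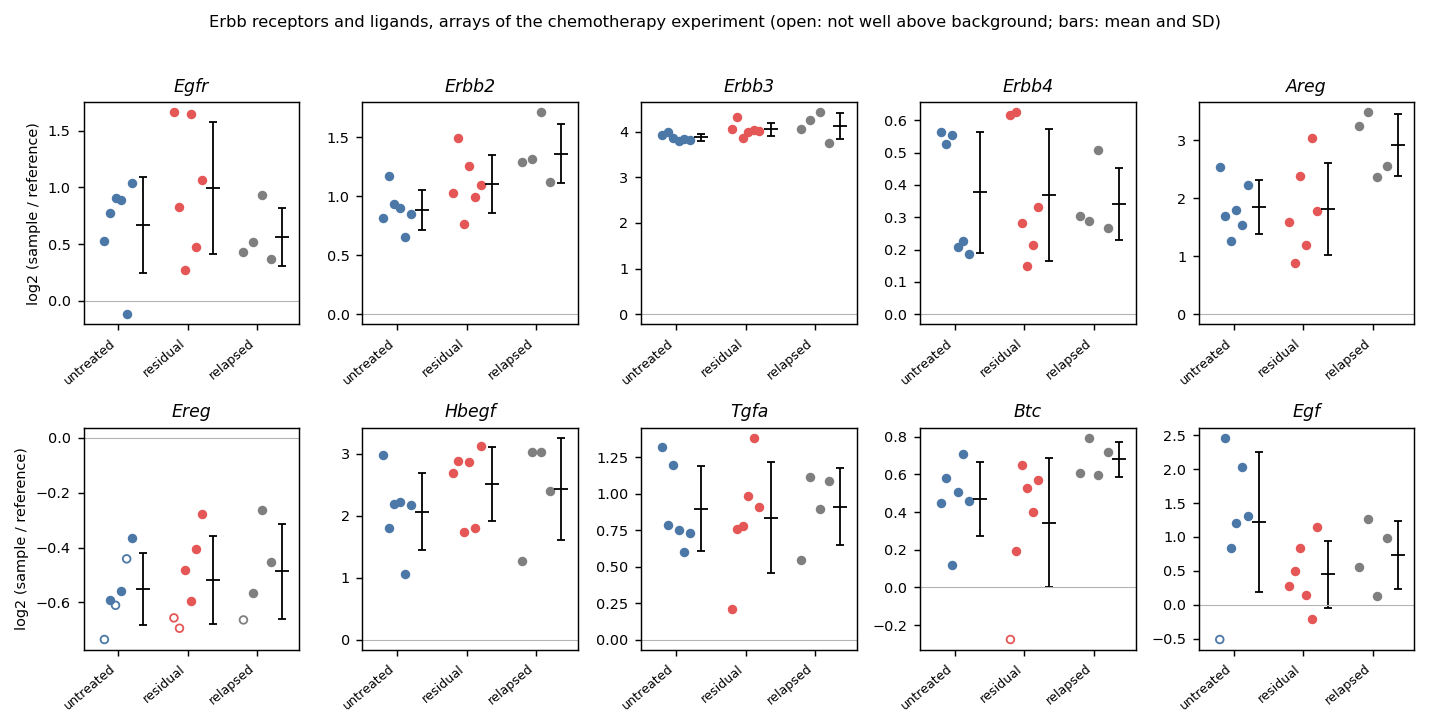
Log2 ratio of sample to reference of each family member on every array of the chemotherapy experiment, with mean and SD; open points are not well above background. Areg reached 2.36 to 3.48 in relapsed tumors against 1.25 to 2.54 in untreated tumors, and the receptors overlapped between groups.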

How the data were processed

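The 38 arrays were Agilent 2-colour whole mouse genome arrays, deposited by the authors as scanner intensity files from Feature Extraction 10.7 and as a matrix of log2 ratios, whose column medians were 0.00 to 0.05. Mean and background intensities of both channels were corrected by normexp (offset 50), loess-normalized within arrays and quantile-normalized between arrays within each experiment (limma 3.58.1, R 4.3.3), after the methods of the study, which name no offset. Control spots were left out, spots of a probe averaged and the probe of highest mean signal kept for each of 27962 gene names. Groups came from the labels. Each experiment was fitted over all its groups with lmFit and eBayes, and p-values were adjusted after Benjamini-Hochberg. Calls needed 0.05 and 2-fold. The fits were tested on simulated data. The precision is limited by the number of arrays. The 10 family members and the pathway and marker lists were chosen with earlier results of these data known. Named genes were all members, called pathway genes with the largest changes of each role and, for likeness, the 3 most correlated genes. The marker lists for basal epithelium, T and NK cells, B cells and fibroblasts had 1, 2, 2 and 1 called genes in disseminated cells against adenoma. The alternatives covered background, normalization, probe choice, filter, slide, replicate number, test and each replicate left out.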

Additional observations from a re-analysis of the deposited data

Results flagged for a closer look

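Of 70 groups of a family member within 1 stage or treatment, 4 held a sample whose gap to its nearest neighbour was large for the range of its group, where chance gives 3.5. In carcinomas Erbb2 was -1.36 in replicate 6, with the next value at -0.08, and Erbb3 was 2.67 in the same replicate, with the next at 3.98. The macrophage marker mean of that sample was 5.18. Tgfa was -0.0314 in disseminated replicate 6, with the next value at -0.20, and Erbb4 was 0.51 in relapsed replicate 3, with the next at 0.30.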

How the results depend on the processing

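The 9 calls of family members kept their direction in all 200 fits under other settings or without 1 sample. Egfr in disseminated cells against adenoma, Areg in metastases against adenoma and Hbegf in disseminated cells against carcinoma remained called in each of them, while 31 of 81 uncalled pairs of gene and comparison changed sign in at least 1. In the progression experiment, slide as a fixed block could be fitted only for disseminated cells against adenoma and metastases against carcinoma. For the other comparisons, those of the Areg and Hbegf calls among them, no fit could part slide and scan day from stage. With the mean of all probes of a gene, 1 of 10 members was called in place of 3 in disseminated cells and in metastases against adenoma, and Egfr in metastases had a change of -0.67 (limma adjusted p = 0.126). In disseminated cells against carcinoma 1 was called in place of 2 with Aquantile or no normalization between arrays (these leave the same ratios), the unmoderated test, the groups compared alone, the replicate block or slide as a random block. Without the 2-fold minimum 1 was called in place of 0 in metastases against carcinoma (Erbb4) and against disseminated cells (Ereg). Leaving out 1 sample gave 0 to 1 members in carcinoma, 1 to 3 in disseminated cells and 2 to 3 in metastases against adenoma, 1 to 3 in disseminated cells against carcinoma, and 0 to 1 and 0 to 2 in metastases against carcinoma and disseminated cells. Erbb3 lost its call against adenoma without any 1 adenoma or disseminated replicate 2, 3 or 5, and against carcinoma without carcinoma replicates 1 to 5 or disseminated replicate 2, 3 or 5. No member was called after chemotherapy in any setting. The cause was not tested.

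The labels do not say whether replicate numbers pair the samples. Deviations of samples with the same number had a median r of -0.02 (31 pairs, -0.42 to 0.33) in the progression and 0.04 (14 pairs) in the chemotherapy experiment. For samples with other numbers it was -0.01 and 0.01. These values showed no sign of pairing but cannot exclude it. With the replicate block, Hbegf was called in metastases against disseminated cells, 1 member in place of 0, and 8 pathway genes in place of 14 in disseminated cells against adenoma. In that comparison Egfr kept its call, Erbb2 and Erbb3 lost theirs (adjusted p = 0.0593 and 0.0932) and Hbegf gained one (-1.06, adjusted p = 0.0255).

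Without the 2-fold minimum the called gene names rose from 944, 2991, 4134, 3292, 2856 and 2008 to 3321, 5848, 8087, 7504, 6207 and 3690 (carcinoma, disseminated and metastases against adenoma, disseminated and metastases against carcinoma, metastases against disseminated), and pathway genes to 4, 27 and 27 from 1, 17 and 17 in carcinoma and metastases against adenoma and disseminated cells against carcinoma. Testing every probe gave 5 and 26 pathway genes in carcinoma and metastases against adenoma. The unmoderated test gave 1914 gene names and 7 pathway genes in disseminated cells against adenoma and 161 and 1 in metastases against disseminated cells, where the groups alone gave 698 and 5. Residual against untreated tumors had 1 to 57 in place of 29, relapsed against untreated 0 to 5 in place of 3 and relapsed against residual as few as 26 in place of 61. The share of calls that were higher moved from 44% to 58.0% in disseminated cells against adenoma and from 47.1% to 57.5% against carcinoma without normalization between arrays, from 35.5% to 48.4% in carcinoma against adenoma with the scanner's processed signals, and from 41.4% to 53.4% and 46.7% to 57.1% in metastases against adenoma and carcinoma with the deposited ratios. It moved from 96.6% to 81.2% in residual against untreated tumors with the scanner's processed signals. The median change of all genes was at most -0.12 in size, in disseminated cells against carcinoma.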
